A study of Mus musculus and synthetic construct with 9 samples.

Results

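The sequences described here were human DNA elements tested for their power to drive a reporter gene in MIN6 β cells under thapsigargin (Tg) ER stress. MIN6 is a mouse insulinoma line, so human sequences were read by mouse transcription factors. In this massively parallel reporter assay (MPRA), each element of 200 bp sat upstream of a minimal promoter and GFP, with SNP and flanks as in the human genome, and barcodes of 20 bp in the GFP mRNA named the element. Activity was the amount of an element's barcodes in GFP mRNA relative to the transfected plasmid library. A sequence was one allele of one element, and 13413 of 13628 sequences were kept because their mean plasmid count was at least 10. Of the 215 left out, 148 had no plasmid count in any library. At the edge of this rule, the B sequence of rs12594752 was kept at a mean plasmid count of 10.0, with Tg counts of 0, 8, 3, 0 and 0, and the B sequence of rs1873578 was left out at 9.8, with Tg counts of 2, 0, 16, 0 and 21.

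The Tg group was 5 libraries of MIN6 cells whose medium was exchanged 6 hours after transfection for medium with 250 nM Tg in 0.025% DMSO. The DMSO group was 5 libraries treated the same way with 0.025% DMSO alone, and both were harvested 30 hours after transfection. The Plasmid group was 5 libraries of the input DNA of that batch, sequenced without cells. Each RNA library pooled 7 dishes, transfected with 7 µg of plasmid per dish at an efficiency of 38%. Only reporter barcodes were counted, so markers of β cells or of ER stress could not be examined in these data.

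Thapsigargin blocks the calcium pump of the endoplasmic reticulum, which empties its calcium store and sets off the unfolded protein response. That response slows translation, raises factors such as ATF4 and CHOP, and in β cells lowers insulin gene expression. β cells carry a high load of protein folding because insulin is made in the endoplasmic reticulum. Many type 2 diabetes (T2D) association signals lie outside genes, where each SNP may sit in an enhancer, a stretch of DNA that raises transcription from a promoter.

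The most active elements are easiest to see in their own letters. For 98 of the SNPs tested, the study's motif table held the reference bases around the SNP in hg19 coordinates, and 3 from active elements are shown here with the reference base of the SNP in capitals. The first and second, of the most active elements with a window, hold pieces of a common repeat, and the last does not.
rs10239132, an intron of GRB10, chr7:50751185-50751213: gcactttgggaggcCgtggcgggtggatc
rs113736501, the PCNX2 locus, chr1:233292458-233292481: gttcaagaccagaCtggccaacat
rs10778949, no locus in the tables held, chr12:83612850-83612878: gatttattgacttaAcctggatcggcagt

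Alu elements are short interspersed repeats spread over the human genome, and letters such as TGGGAGG and GAGGCNGG belong to their common sequence. Both strands of the 98 windows were searched for 6 such pieces, chosen after the windows and their values were seen. The first was TGGGAGG, the second was GAGGCNGG, the third was GTGGCTC, the fourth was GTGAGCC, the fifth was GTGAAAC and the last was AGACCAG. The first and second pieces can overlap at GAGG, and GTGAGCC overlaps the reverse complement of GTGGCTC. At least 1 piece was present in 8 of the 12 windows whose element was over 4-fold above plasmid in Tg (66.7%). It was present in 7 of 37 windows of active elements at or below 4-fold (18.9%) and in 2 of 49 windows of elements that were not active (4.08%). Over all 98 windows the share was 17.3%. A window covers at most 29 of 200 bases, most windows of active elements were listed because the study had called allelic effects on these same libraries, and a missing piece says nothing of the rest of the element.

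Across all 13413 sequences, edgeR called 1722 active in Tg at an FDR of 1%, which is 12.8% of those tested, and 342 depleted relative to plasmid, which is 2.55%. The other 11349 (84.6%) passed in neither direction. For the middle of the distribution, the lower and upper quartiles of log2 RNA over plasmid were -0.11 and 0.13, around a median of -0.01. The 1% and 99% points were -0.57 and 1.67, so the upper tail was the longer one. Among active sequences the median was 0.40 on the log2 scale, or 1.32-fold, and the highest was 10.29, or 1248-fold.

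The active sequences fell mostly into a broad group of weak elements and a small group of very strong ones. There were 1453 under 2-fold (84.4% of the active), 150 between 2- and 4-fold, 38 between 4- and 16-fold, 43 between 16- and 64-fold, and 38 at 64-fold or more. Every Tg library was above every plasmid library for 1576 of the 1722 active sequences (91.5%), against 13.4% of all sequences tested. All 269 sequences over 2-fold were separate in this way. Separation was read from the same counts as the call, so the selection favoured a high share and it is no separate evidence.

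The strongest sequences held much of the reporter RNA. The 81 sequences over 16-fold took 37.8% to 41.2% of the counts of a Tg library and 0.427% to 0.433% of a plasmid library. All active sequences together took 51.9% to 54.4% of Tg counts and 16.1% of plasmid counts. The scaling therefore decides where 0 lies: the total counts alone moved the median of all sequences by -0.80 on the log2 scale, and with them 266 sequences were called active and 12227 depleted. Levels here are relative to the bulk of tested sequences, as scaled by TMM, and total GFP mRNA per cell was not measured.

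Detection of weak activity depended on depth. Tg libraries held 29968043 to 44899256 counts and plasmid libraries 23009482 to 36129587. For the 566 sequences with mean plasmid counts of 10 to 100, the median standard deviation of log2 RNA over plasmid among the 5 Tg libraries was 0.992, and 9 were active (1.59%). For the 4046 sequences with at least 3000, that standard deviation was 0.0974, and 758 were active (18.7%). The smallest active difference was 1.24 on the log2 scale in the first band and 0.14 in the last. Low activity of a thinly represented sequence was therefore not detectable at this depth.

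Most elements that were active with one allele were active with the other as well. Of 6544 SNPs with at least 1 sequence tested, 1059 had at least 1 active sequence (16.2%). Among the 6501 with both sequences tested, both were active for 614 and 1 for 445. At the top of the range both sequences of a SNP were mostly strong. Their levels could still differ, as for rs72697237, with log2 values of 6.93 and 5.57. Of the 43 SNPs with a sequence over 16-fold, 38 had both sequences over 16-fold and 42 had both active. The exception was rs2215383, at chr7:15062983 in the AC006458.1 and GTF3AP5 locus, with log2 values of 4.22 and -0.31. Sequences in which a neighbouring SNP carried its other allele were active at about the overall rate, 49 of 368 (13.3%).

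The highest activity in Tg belonged to rs79695922, in an intron of SYK, a tyrosine kinase of immune receptor signalling, at chr9:93648708. Its C sequence had log2 RNA over plasmid of 10.18, 10.25, 10.32, 10.45 and 10.21 in the 5 Tg libraries, with a mean of 10.28 ± 0.108 (SD, n = 5). The spread among libraries was small beside the distance from plasmid, and edgeR's adjusted p was 2.64e-33. In DMSO the mean was 10.07 ± 0.0894 (n = 5), and the difference of 0.23 between the treatments did not pass (adjusted p = 0.0507).

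The reference sequence of rs4818070 followed, with log2 values of 9.57, 9.68, 9.81, 9.96 and 9.75 in Tg. The G sequence of rs4300038, at the locus of SLC30A8, the zinc transporter of insulin granules, gave 9.24, 9.30, 9.48, 9.54 and 9.38. The T sequence of rs2947795, at the locus of HMGA2, a chromatin protein linked to growth, gave 9.28, 9.31, 9.39, 9.47 and 9.28. In each of these 4 the Tg libraries lay close together, with every plasmid library far below them.

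The T sequence of rs10239132, whose window is the first above, gave 9.15, 9.06, 9.16, 9.25 and 9.11. GRB10, whose intron holds it, encodes an adaptor that damps insulin receptor signalling. The remaining members of the 10 highest were rs35221765 at the ATP8B2 locus (log2 fold change 8.99), rs2881632 at SDHAF4 (8.25), rs9879646 at ZBTB20 (8.17), rs4074419 at C3orf85 (8.00) and rs113736501 at PCNX2 (7.89). Over the 10, standard deviations ran from 0.0441 to 0.158 and log2 fold changes in DMSO from 7.48 to 10.07. In the direct test, 6 of the 10 were higher in Tg than in DMSO, where 2.04% of all sequences were. Choice by Tg level favours rises, and 26 of all 38 active sequences at 64-fold or more were higher.

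Most SNPs with strong activity lay at T2D signals. Of the 43 SNPs over 16-fold, 33 stood in the held part of the T2D SNP table, where 1999 of the 6544 SNPs tested did. With those named only by the study's list of T2D SNPs with allelic effects, 39 had a named T2D locus, from 31 loci. Several elements at one locus were this strong at PCNX2 and HIGD1C, with 3 SNPs each, and at IGF2BP2, MAP3K1, ATP8B2 and AC009511.3, with 2 each. Of the 33, 2 lay in an islet ATAC-seq peak, the mark of open chromatin, as did 149 of all 1999 SNPs tabulated. The study's list held 220 SNPs and 37 of the 43, but it was drawn up on these libraries and is no independent evidence.

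Activity of any strength was also counted by islet chromatin. In the held T2D table, 25 of 149 SNPs in ATAC-seq peaks (16.8%) and 202 of 1850 outside them (10.9%) had an active sequence in Tg, beside 11.4% of the whole table and 16.2% of all SNPs tested. The median log2 fold change of active elements was 0.38 inside peaks and 0.57 outside. In DMSO the shares were 32.9% inside and 13.7% outside, beside 15.1% of the table and 24.0% of all SNPs, so the share inside peaks was lower in Tg and the gap between the classes narrower, a difference that was not tested. Among SNPs under islet binding peaks, 8 and 18 of 50 were active in Tg and in DMSO for PDX1, the master regulator of β cell identity. The shares were 7.14% and 25.7% of 70 for FOXA2, a pioneer factor. For NKX6.1 they were 17.1% and 25.7% of 35, and for the architectural factor CTCF the counts were 5 and 7 of 20. The marks of active chromatin gave 17.5% and 36.5% of 63 for H2A.Z, and 18.5% and 33.8% of 65 for H3K27ac.

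How often an element was active varied with its place relative to genes. Of 888 SNPs with a genomic annotation, 180 had an active sequence in Tg (20.3%). The share was 15.9% of 414 intronic, 22.3% of 368 intergenic and 18.0% of 50 noncoding RNA SNPs. It was 44.4% of the 36 SNPs just upstream of a gene or in a 5′ UTR, made up of 9 of 25 upstream and 7 of 11 in a 5′ UTR, and 6 of 15 in a 3′ UTR. Of all 888, 12 were over 16-fold, of which 7 were intronic and 5 intergenic. That table covers SNPs with predicted motif changes only, and the counts were not tested.

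The most active of the promoter-proximal elements was rs17164589, upstream of MAEA, a subunit of a ubiquitin ligase, at chr4:1283608. Its G sequence gave 1.76, 1.39, 1.23, 1.43 and 1.59 in Tg, all above plasmid, and averaged 2.67 ± 0.205 (n = 5) in DMSO. The fall of 1.18 passed the direct test (log2 change -1.18, adjusted p = 1.63e-05). The A sequence of rs1877714, in the 5′ UTR of AAMP, fell by 0.67 to a log2 fold change of 0.93. The G sequence of rs12402498, in the 5′ UTR of PHF13, fell by 0.87 to 0.83, and the A sequence of rs11073967, in the 5′ UTR of the vesicle sorting gene VPS33B, fell by 0.67 to 0.82. In the 5′ UTR of the DNA helicase gene WRN, the C sequence of rs11574157 stood at 0.65 in Tg and 0.68 in DMSO, and did not pass against DMSO.

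Overlapping elements mostly had similar levels, but most pairs held no active element. Some pairs differed widely, nearly all of them 50 bp or more apart, where most pairs with an active element lay. With 100 bp on each side of the SNP, elements of SNPs less than 200 bp apart overlap, and 359 such pairs had known positions. For the 71 pairs less than 50 bp apart the median difference between the higher sequences of the pair was 0.077 on the log2 scale, and 1 pair differed by more than 1. Of 96 pairs at 50 bp or more and under 100 bp 9 differed by more than 1, and of 192 pairs at 100 bp or more 18 did. Neither element was active in 66 of the 71 pairs, 74 of the 96 and 151 of the 192. Small differences were therefore mostly between inactive elements, and the closest pairs say little of how alike active elements were.

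A large contrast within an overlapping pair needs a strong element, since values far below 0 were rare. In the pair with the largest contrast, rs35221765 at ATP8B2 reached 8.99 and rs34055426, with 25 bp in common, 0.21. The element of rs10239132, at 9.15, shares 91 bp with that of rs10248619, which lies 109 bp away at chr7:50751090 and reached 0.92. The element of rs60614118, near TMEM155 and ANXA5 at chr4:122666141, reached 7.53, while rs59871988, with 118 bp in common, reached 0.43 and rs72678650, with 59 bp in common, 0.10. On chromosome 12, rs3751236 reached 6.92 between rs7970193 at 0.44 and rs3751237 at 0.31, which share 99 and 95 bp with it. At IGF2BP2, rs7630554 reached 5.85 and rs35188816, 46 bp away, 1.48. At PCNX2, rs113189579 and rs113736501 were both strong, at 5.15 and 7.89 with 121 bp in common, so they are not independent examples.

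Loci known for insulin secretion held 290 tested SNPs, of which 34 had an active sequence in Tg (11.7%) and 64 in DMSO (22.1%). The shares were 11.4% and 15.1% for the held T2D table and 16.2% and 24.0% for all SNPs. The 5 most active reached log2 fold changes of 4.11 to 9.39. After rs4300038 at SLC30A8 came rs9854769 and rs7630554 at IGF2BP2, which encodes an RNA binding protein, at 7.55 and 5.85. The C sequence of rs4688986 at WFS1, a protein of the endoplasmic reticulum that is lost in Wolfram syndrome, gave 5.28, 5.30, 5.36, 5.51 and 5.38. The C sequence of rs11603349 at ARAP1 gave 3.99, 4.02, 4.11, 4.21 and 4.20. No tested SNP was active in Tg at TCF7L2 (3 SNPs), JAZF1 (5) or CDKAL1 (12).

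Loci known for insulin action and adiposity held 261 SNPs, of which 18 were active in Tg (6.90%) and 25 in DMSO (9.58%), below the same shares of the held T2D table and of all SNPs. MAP3K1, a stress-activated kinase, had 6 active SNPs of 71, led by rs7728745 at 4.46 and rs832571 at 4.32. At GRB14, an inhibitor of the insulin receptor, none of 29 was active and 3 were depleted. Loci with genes of the endoplasmic reticulum or of protein turnover held 122 SNPs. Of these, 18 were active in Tg (14.8%) and 31 in DMSO (25.4%). The shares were 16.2% and 24.0% for all SNPs, and 11.4% and 15.1% for the held T2D table. The most active of the 122 were rs13262110 at NDUFAF6 and TP53INP1, at 6.03, and rs4688986 at WFS1, which stands on both lists. FAF1, a factor in the clearance of misfolded proteins, had 4 active of 25, with the highest at 0.51. The tables that name these loci are held in part, and no test of the lists was made.

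Relative to DMSO, elements active in Tg moved in both directions. Of the 1722, 252 were higher in Tg than in DMSO (14.6%) and 348 were lower (20.2%), beside 2.04% and 4.17% of all sequences. The other 1122 did not pass. The direction followed strength: under 2-fold in Tg, 99 were higher and 313 lower, between 2- and 4-fold 72 and 34, between 4- and 16-fold 22 and 1, and at 16-fold or more 59 and 0. Bands set by Tg activity favour rises, so the same was read in bands set by DMSO activity, which favour falls. Of the 2305 sequences active in DMSO at under 2-fold, 107 were higher in Tg and 389 lower, and 52.5% were still active in Tg. Of the 217 at 2- to 4-fold, 33 were higher and 146 lower, with a median change of -0.53 on the log2 scale. The order turned above this: of 67 at 4- to 16-fold, 29 were higher and 19 lower, and of the 68 at 16-fold or more, 46 were higher and none lower.

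For the 43 SNPs over 16-fold in Tg, the more active sequence had a positive difference from DMSO in all 43, and 30 passed the direct test. Both the SNPs and the sequence of each were chosen by Tg level, which favours a positive difference. The differences ran from 0.08 to 0.64 on the log2 scale, with a median of 0.31. The changes were small beside the activity itself, which was already present without Tg.

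Elements that became active with Tg were few and weak. Of the 171 sequences active in Tg and not in DMSO, 37 were also higher in the direct test, and 134 did not pass it. The strongest of the 37, the alternate sequence of rs7124060, gave 1.49, 1.08, 0.93, 1.14 and 1.28 in Tg and averaged 0.14 ± 0.0842 (n = 5) in DMSO. Its rise of 1.07 passed at an adjusted p of 3.85e-12. The alternate sequence of rs3111008 rose by 0.69 to 0.79, and the G sequence of rs956708, at chr11:60599421, by 0.61 to 0.63. The G sequence of rs2268791, in an intron of CFLAR, an inhibitor of caspase-8, rose by 0.56 to 0.68. The T sequence of rs7163757, between C2CD4A and C2CD4B at chr15:62391608, gave 0.78, 0.70, 0.55, 0.63 and 0.55 in Tg and averaged 0.11 ± 0.0935 in DMSO, a rise of 0.55 (adjusted p = 3.03e-12).

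Losses were more frequent. Of 2657 sequences active in DMSO (19.8% of those tested), 1106 were not active in Tg, of which 206 were lower in the direct test and 900 did not pass it. In all, 559 sequences were lower in Tg than in DMSO, and 348 of them were still active in Tg. Among these, the alternate sequence of rs75927292 stood at 1.92 in Tg and 2.86 in DMSO, and that of rs643807 at 1.77 and 2.78. The G sequence of rs73402046, at chr11:8406278, gave 1.72, 1.62, 1.58, 1.85 and 1.72 in Tg and averaged 2.50 ± 0.173 (n = 5) in DMSO (adjusted p = 6.16e-15). The reference sequence of rs56158923 fell from 2.14 to 1.67, and the alternate sequence of rs9592021 from 2.42 to 1.53. The highest Tg level of a lowered sequence was 2.44 on the log2 scale, in the reference sequence of rs75927292, whose mean plasmid count was under 100.

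SNPs of the held T2D table and the rest of the library differed in the direction of these changes. Of the 227 SNPs of the held T2D table that were active in Tg, 77 had a sequence that was higher than in DMSO and 18 one that was lower. Of the 832 other active SNPs, which include most of those chosen for islet open chromatin, 87 had a higher and 218 a lower sequence. These others also include T2D SNPs outside the held part. Of the 249 active SNPs with any named T2D locus, 91 had a higher and 21 a lower sequence. These counts were not tested.

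Depletion below plasmid was small in size. Of the 342 depleted sequences, 338 were under 1.5-fold, and the median was -0.24 on the log2 scale. The count was 154 to 172 when any 1 plasmid library was left out, 931 with DESeq2 and 1492 without the 100 top RNA sequences in the totals. Every Tg library was below every plasmid library for 276 of them (80.7%), against 5.06% of all sequences. Here too, the same counts made the call, so this share is no separate evidence. In 310 SNPs at least 1 sequence was depleted, but in 26 both were. The 10 most depleted sequences with at least 100 plasmid counts had log2 fold changes of -0.70 to -0.44 and adjusted p of 0.000218 to 0.00906.

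The reference sequence of rs55912553 was the lowest, at -0.71, -1.04, -0.68, -0.70 and -0.43 in the 5 Tg libraries. The C sequence of rs6726917 at THADA gave -1.10, -0.26, -0.51, -0.61 and -0.56. All 5 were below plasmid, with a standard deviation of 0.307 beside a mean of -0.61. The alternate sequence of rs6957736 stood at -0.57 and the reference sequence of rs10427395 at -0.54. The A sequence of rs12955983, on chromosome 18, stood at -0.51. The alternate sequence of rs2236341 and the reference sequence of rs6710273 were both at -0.50. The C sequence of rs6794202 at ADCY5, an adenylyl cyclase that couples glucose to insulin release, stood at -0.45, and the G sequence of rs9841201 at IGF2BP2 at -0.44. Of these 10, only rs10427395, rs12955983 and rs9841201 kept the call without each of the 10 Tg and plasmid libraries in turn, and the other 7 lost it without 1 to 8 of them.

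Larger depletion was found only at low plasmid counts. The 3 sequences depleted by 4-fold or more, named here after their values were seen, had mean plasmid counts of 22.0, 57.8 and 52.0. The alternate sequence of rs2351706 had Tg counts of 0, 1, 3, 0 and 0, the T sequence of rs73092537 at HIGD1C had 0, 15, 5, 8 and 9, and the T sequence of rs1257575 at CR2 had 4, 4, 18, 1 and 12. Their fitted log2 values of -4.04, -2.36 and -2.17 rest on few counts, and the call of rs1257575 was lost when any 1 of 7 libraries was left out.

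Few depleted sequences differed between Tg and DMSO. Of the 342, 202 were also depleted in DMSO, where 1097 sequences were (8.18%), and none was higher in Tg than in DMSO. With edgeR, 2 were lower, and they were named after their values were seen. The T sequence of rs10811661, between CDKN2B-AS1 and DMRTA1 at chr9:22134094, gave -0.21, -0.21, -0.38, -0.46 and -0.23 in Tg and averaged 0.27 ± 0.148 (n = 5) in DMSO, with an adjusted p of 1.11e-06 for the difference. The reference sequence of rs4565432 stood at -0.27 in Tg and 0.07 in DMSO. Depletion of rs10811661 was no longer called without plasmid library 3, and that of rs4565432 when any 1 of 6 libraries was left out.

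At this spot of the CDKN2A/B region, 3 of 4 sequences were lower in Tg than in DMSO. The windows of rs10811660 and rs10811661, 26 bp apart in this T2D signal, are shown because the SNPs share almost all of their elements.
rs10811660, chr9:22134054-22134074: ttcttgccctgtcaGcagctc
rs10811661, chr9:22134082-22134106: gctttagttttcTcatgacagtaag
From DMSO to Tg, the T and C sequences of rs10811661 moved from 0.27 to -0.29 and from 0.39 to -0.07, and the G sequence of rs10811660 from 0.38 to 0.05. The A sequence of rs10811660 stood at -0.0042 in DMSO and -0.05 in Tg, and did not pass (adjusted p = 0.91).

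SNPs that the study carried into other assays spanned the range of Tg activity. At PEX5L, which encodes a protein that regulates ion channels, the sequences of rs17748864 at chr3:179649511 differ in 1 base, as seen in the probes used for protein binding.
rs17748864 C allele: tacagcacagCccaattaact
rs17748864 T allele: tacagcacagTccaattaact
The T sequence gave 3.32, 3.21, 3.34, 3.29 and 3.33 in Tg, and the C sequence -0.22, -0.22, -0.24, -0.20 and -0.07. Only the T sequence was active, with 3.15 in DMSO, and its difference from DMSO of 0.17 did not pass (adjusted p = 0.0376).

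At RNF6, a ubiquitin ligase gene, both sequences of rs4630391 at chr13:26777824 were strong. The probe letters include GTGGCTC, a piece chosen after values were seen.
rs4630391 C allele: gcaggctgggCgcagtggctc
rs4630391 T allele: gcaggctgggTgcagtggctc
The C sequence gave 4.97, 5.05, 5.15, 5.36 and 5.14 in Tg and the T sequence 4.53, 4.56, 4.68, 4.91 and 4.71. In the direct test the T sequence was higher in Tg by 0.26 (adjusted p = 0.00843), and the C sequence, at 0.22, did not pass (adjusted p = 0.0363). The neighbouring rs34584161 stood at 0.10 and 0.04 and was not active. At LARP6, the A and G sequences of rs113350503 reached 3.88 and 4.10. Those of rs11630895, 2301 bp away, stood at 0.13 and 0.01 and were not active. The window of rs113350503 holds GTGAAAC, and that of rs11630895 holds TGGGAGG on the other strand.

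At the SLC35D3 locus, sequences of 3 SNPs were active in Tg at low levels. The A and C sequences of rs6937795 stood at 0.38 and 0.34. The overlapping elements of rs947735 and rs947734, 43 bp apart, stood at 0.67 and 0.83 and at 0.45 and 0.68. Of these 4, all but the T sequence of rs947734 were higher than in DMSO, by 0.29 to 0.30. Near VEGFA, which encodes the main vascular growth factor, the G sequence of rs12189774 was active at 0.34 and the A sequence, at 0.15, was not, although it was active in DMSO at 0.40 and its fall of 0.23 passed (adjusted p = 0.00117).

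Several well known T2D SNPs were near plasmid level in Tg. The C and T sequences of rs7903146 at TCF7L2, a Wnt pathway factor, stood at -0.08 and -0.08, and the T sequence was lower than in DMSO by 0.22. Neither sequence of rs1635852 at JAZF1, rs10428126 at IGF2BP2, rs4846567 near LYPLAL1 or rs2879813 at TP53INP1 was active. At SLC30A8, the G sequence of rs3802177 was active at 0.26 (adjusted p = 0.00865), and at IRS1 the G sequence of rs2943656 at 0.23 (adjusted p = 0.00215). The first call was lost when any 1 of 8 libraries was left out, and the second when either of 2 was. The T and C sequences of rs11603349 at ARAP1, in contrast, reached 4.04 and 4.11, and both were higher than in DMSO, by 0.38 each.

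Tg libraries correlated with each other about as closely as with DMSO libraries. Correlations of log2 counts ran from 0.972 to 0.977 among the Tg libraries, from 0.983 to 0.985 among the DMSO libraries and from 0.973 to 0.980 between Tg and DMSO. They ran from 0.993 to 0.994 among plasmid libraries and from 0.944 to 0.950 between Tg and plasmid. The coefficient of biological variation was 12.7% in Tg, 8.31% in DMSO and 4.02% in plasmid, so calls in Tg faced more noise than calls in DMSO, and the smaller number of active sequences in Tg was not corrected for this. Replicates were transfections on separate days, while plasmid libraries are repeats of 1 batch. Without molecular identifiers, reads of the same RNA molecule could be counted more than once.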

How the data were processed

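RNA and plasmid libraries were read from the tables of sequencing runs 1 and 2. Per the labels and the paper's methods, each deposited value is a raw count of reads, added by the authors across all barcodes that named one sequence, after barcodes with more than 1 sequence were dropped. The submitters' notes name DESeq2. The counter was not given in the sources used here, and no per-sample column of these tables was unread (0). Columns of the same name were summed over runs, whose log2 counts correlated at 0.9963 or more in every library. Tg was tested against plasmid, and Tg against DMSO, in edgeR 4.0.16 under R 4.3.3 by its quasi-likelihood test, robust, with TMM scaling, two-sided, at a Benjamini-Hochberg FDR of 1% over all 13413 sequences, without a replicate block. Values per library are log2 of scaled RNA over mean scaled plasmid counts with a pseudocount of 1, and fold changes and adjusted p-values come from edgeR. DESeq2 1.42.0 and other scalings, filters and subsets were alternatives. Tables were joined with Python 3.11.15.

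A denotes the reference and B the alternate allele, as plasmid ratios of 148 of 150 SNPs with known alleles showed. Loci, peaks, annotations, alleles and letters (hg19) came from supplementary tables held in part, so they were counted and not tested. Members, lists and the rule for named sequences were chosen with earlier results of these data known. The rule takes the 10 highest and 10 lowest sequences past the test with at least 100 plasmid counts and separate libraries, the 5 highest gained and 5 highest lowered against DMSO among active sequences with at least 100 plasmid counts, SNPs named in the paper, and the 5 most active SNPs of each locus list and near promoters. rs6917676 was not used here, and some loci, binding peaks and windows are not reported here. The scripts were tested on simulated counts. Standard culture libraries, from another plasmid batch, were not used.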

Additional observations from a re-analysis of the deposited data

Results flagged for a closer look

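Among the 5 Tg libraries, 1 stood apart from the other 4 in 4 of the 98 groups of values examined for this, where chance alone flags about 1 in 20 groups. For the G sequence of rs9841201 at IGF2BP2, 1 library gave -0.756 on the log2 scale and the others -0.399 to -0.327. For the C sequence of rs17748864 at PEX5L, 1 gave -0.0741 and the others -0.237 to -0.197. For the C sequence of rs947735 at SLC35D3, 1 gave 0.844 and the others 0.603 to 0.636, and for its G sequence 1 gave 0.958 and the others 0.782 to 0.822.

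The effect of Tg on RNA over plasmid differed from that of DMSO, by the direct edgeR test, for 252 active sequences that were higher in Tg and 348 that were lower.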

How the results depend on the processing

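Depth and scaling set the limits. Weak activity of sequences with few plasmid counts was not detectable, the position of 0 rests on TMM, and depletion, mostly under 1.5-fold, was the least stable count. The counts of active sequences (1722), depleted sequences (342), SNPs with an active sequence (1059), and active sequences above (252) or below (348) DMSO stayed within 1.5 times with median ratio size factors, a plasmid minimum of 100, no filter, either run alone, all groups in one fit, no robust estimation and the replicate block. With total counts alone they were 266, 12227, 153, 102 and 35. Without the 100 top RNA sequences in the totals, 1492 were depleted, and with DESeq2 931. Against a fold of 1.5 (glmTreat), 358 sequences and 206 SNPs were active, and 0 were depleted. At the same FDR of 1%, edgeR's usual test gave 342 depleted, and at its unadjusted p under 0.05 it gave 1969 lower. Leaving out 1 library gave 1516 to 1728 active, 154 to 471 depleted, 931 to 1076 SNPs, 216 to 250 above and 289 to 340 below DMSO. Depleted sequences numbered 172, 171, 164, 160 and 154 without plasmid library 1, 2, 3, 4 and 5. With 1 Tg library left out they numbered 385 to 471. The fit counted the plasmid libraries, which were repeats of 1 batch, as replicates like the Tg transfections. The cause of this difference was not tested.

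The study describes its DMSO and Tg experiments as paired, but the sources used here do not say that the column numbers mark the pairs, so they were not used as such. Deviations of same-numbered libraries correlated at 0.0052 to 0.054 between Tg and DMSO, where 3 of 5 correlated best with their own number, and at -0.023 to 0.063 between Tg and plasmid, where 2 of 5 did. The replicate block gave 1781 active and 472 depleted sequences, 1092 active SNPs, and 278 above and 370 below DMSO.

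An alternative value counted as unchanged if its call held and no called direction reversed. With a pseudocount of 5, it had to lie within the standard deviation among Tg libraries. By this rule, 1478 of 1595 alternative values were unchanged for the 94 sequences examined singly. Total counts alone reversed 28 of them, to log2 values of -0.0128 for rs3111008 (alternate), -0.12 for rs2268791 (G), -0.16 for rs7163757 (T), -0.17 for rs956708 (G), -0.67 and -0.79 for rs11630895 (G, A), -0.42 and -0.46 for rs6937795 (A, C), -0.35 and -0.12 for rs947734 (T, C), -0.13 for rs947735 (C), -0.46 and -0.65 for rs12189774 (G, A), -0.79 and -0.60 for rs1635852 (T, C), -0.78 and -0.57 for rs2943656 (A, G), -0.71 for rs10428126 (T), -0.75 for rs10811660 (G), -0.72 and -0.76 for rs4846567 (G, T), -0.75 and -0.75 for rs2879813 (A, G), -0.54 and -0.70 for rs3802177 (G, A), -0.70 and -0.76 for rs34584161 (A, G) and -0.16 for rs11574157 (C). By construction this scaling lowers every value. Of the 73 called, 13 lost their call when 1 library was left out, 11 depleted and 2 active under 2-fold.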
